A study of Mus musculus with 7 samples.

Results

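The genes of the cytosolic ribosomal proteins were examined in CD11c+ cells of transplanted mice, on 4 wild-type and 3 Atg16l1 hypomorph arrays. Members were all genes with a symbol of Rpl or Rps followed by a digit, without the Rps6k kinases, together with Rplp0, Rplp1, Rplp2 and Rpsa. A gene counted only where a probe set named it alone, and each entered with its probe set of highest mean over the 7 arrays. This gave 49 of the 12393 genes that the array names alone, measured by 101 probe sets, of which 23 genes had several. The 2 stalk genes Rplp0 and Rplp2 were measured, while Rplp1 and Rpl5 were reached only by probe sets that name several genes. The RefSeq table gave 47 of the 49 as protein-coding and 2, Rps4l and Rps15a-ps6, as transcribed pseudogenes.

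Spleens were taken on day 7 of an allogeneic hematopoietic transplant, in which stem cells come from a genetically different donor, and CD11c+ cells were enriched with magnetic beads. Both groups carried the C57BL/6J background, and they differed in the labelled genotype, wild type or Atg16L1 hypomorphic. Atg16l1 acts in autophagy, where it directs LC3 to the growing membrane, and a hypomorphic allele retains some of its activity. The labels do not say whether the genotype is that of donor, recipient or both, or which allele was used. Nor do they say whether each array is a separate animal, so p-values refer to these 7 samples and not to a known number of animals. Mice were 9 weeks old by the sample protocol and 8 weeks old by the series design. Magnetic enrichment leaves other cells in the sample, and in such bulk RNA fewer cells of a type and less RNA per cell cannot be told apart. Atg16l1 itself read 7.30 ± 0.0924 on the wild-type arrays, against 6.86 ± 0.0912 on the hypomorph arrays without overlap (limma adjusted p = 0.462), and where its probe set lies relative to the allele was not analysed here.

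A cytosolic ribosome joins a small subunit, which decodes the mRNA, and a large subunit, which forms the peptide bond. Nearly every subunit protein is made from a single gene, and the mRNAs of these genes share a terminal oligopyrimidine (TOP) tract at their first bases, through which mTORC1 and LARP1 set how well they are translated. Ribosomes can also be degraded by selective autophagy, called ribophagy. The arrays measured mRNA, and neither ribosome number nor translation.

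The start sites of the members are shown because the TOP tract is a feature the choice of members did not use. RefSeq promoters (GRCm38.p6) matched 42 of the 49 genes, with 50 start sites. The windows below span 15 bases before to 15 bases after the annotated start, are written 5′ to 3′ on the transcribed strand, and have the longest run of C or T in capitals.
Rpl35: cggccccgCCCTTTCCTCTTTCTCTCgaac
Rpl14: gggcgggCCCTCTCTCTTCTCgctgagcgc
Rps18: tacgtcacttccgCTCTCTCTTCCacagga
Rplp2: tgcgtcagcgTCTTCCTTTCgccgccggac
Rps6: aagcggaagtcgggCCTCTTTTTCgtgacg
Rps27: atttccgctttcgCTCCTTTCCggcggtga
Rps27l: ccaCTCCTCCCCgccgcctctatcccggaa
Rps25: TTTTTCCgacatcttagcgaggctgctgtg
Rpl7l1: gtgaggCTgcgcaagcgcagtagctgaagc
They lie at chr2:39005117-39005146 (minus strand), chr9:120571502-120571531 (plus), chr17:33955651-33955680 (minus), chr7:141447636-141447665 (plus), chr4:86857353-86857382 (minus), chr3:90213634-90213663 (minus), chr9:66946071-66946100 (plus), chr9:44407699-44407728 (plus) and chr17:46782642-46782671 (minus), in the order printed. The run was 18 bases in Rpl35, 14 in Rpl14, 11 in Rps18, 10 in Rplp2 and Rps6, 9 in Rps27 and Rps27l, 7 in Rps25 and 2 in Rpl7l1, a relative of Rpl7 that acts in ribosome assembly. The runs of Rps27l, Rps25 and Rpl7l1 begin 12, 15 and 9 bases before the annotated start. They also end before it, so they lie outside the transcript as annotated. A run of at least 8 letters that are each C or T, on the transcribed strand, was present in 19 of the 50 member windows (38.0%). Among all 32851 windows 3943 had such a run, and the printed windows had it more often than the members as a whole. The word CCGGAAG or its reverse complement CTTCCGG, the core of binding sites for ETS factors, was present in 21 of the 50 member promoters of 300 bases (42.0%) and in 8.86% of all promoters of that length. Annotated starts can lie some bases from the true first base, so a window without a run says nothing about the transcript.

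No ribosomal protein gene passed the test between hypomorph and wild type after adjustment, and most differences were small. With limma run on 22625 probe sets and Benjamini-Hochberg adjustment, 0 of 49 members passed an adjusted p of 0.05, against 0% of all probe sets, and the smallest adjusted p of a member was 0.644. At an unadjusted p under 0.05, 1 member (2.04%) was lower, against 3.34% of all probe sets, and 1 (2.04%) was higher, against 4.35%. Changes are given as log2 differences, hypomorph minus wild type. Their median was -0.04 over the members and 0.00 over all probe sets, and 43 of the 49 members (87.8%) had a change smaller than 0.1, compared with 55.3% of all probe sets. The 95% confidence interval lay within 0.2 on either side of 0 for 28 members and within 0.5 for 44. In limma the variance of each probe set is drawn toward that of all probe sets. Intervals and p-values of genes with little spread therefore do not rest on their own arrays alone. Rpl10a, with SDs of 0.0143 (wild type) and 0.0312 (hypomorph), had a standard error of 0.0559.

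The small differences leaned one way. A negative change was found for 39 of the 49 members (79.6%), where 49.3% of all probe sets had one. The hypomorph arrays lay entirely below the wild-type arrays for 5 members (10.2%, against 2.5% of all probe sets) and entirely above them for 0 (against 3.07%). Bright probe sets of other genes also separated more often than all probe sets. Of the 125 with a mean log2 value above 12 and no ribosomal protein symbol, 7.2% lay entirely below and 8.8% entirely above. Of the 127 above 12 with a ribosomal protein symbol, which include several probe sets of some genes, 15.7% lay entirely below and 0.787% entirely above. Of the 36 members with a mean above 10, a lower limit, 11.1% lay entirely below. Members are not independent of each other on an array, so their count is not a count of replicates. Without wild-type replicate 1 the number of negative changes was 32 and the median -0.024, in place of -0.041 with all arrays, and without hypomorph replicate 3 the median was -0.021. With quantile normalization of the deposited values it was -0.018, with 33 negative changes.

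**Figure D1:**
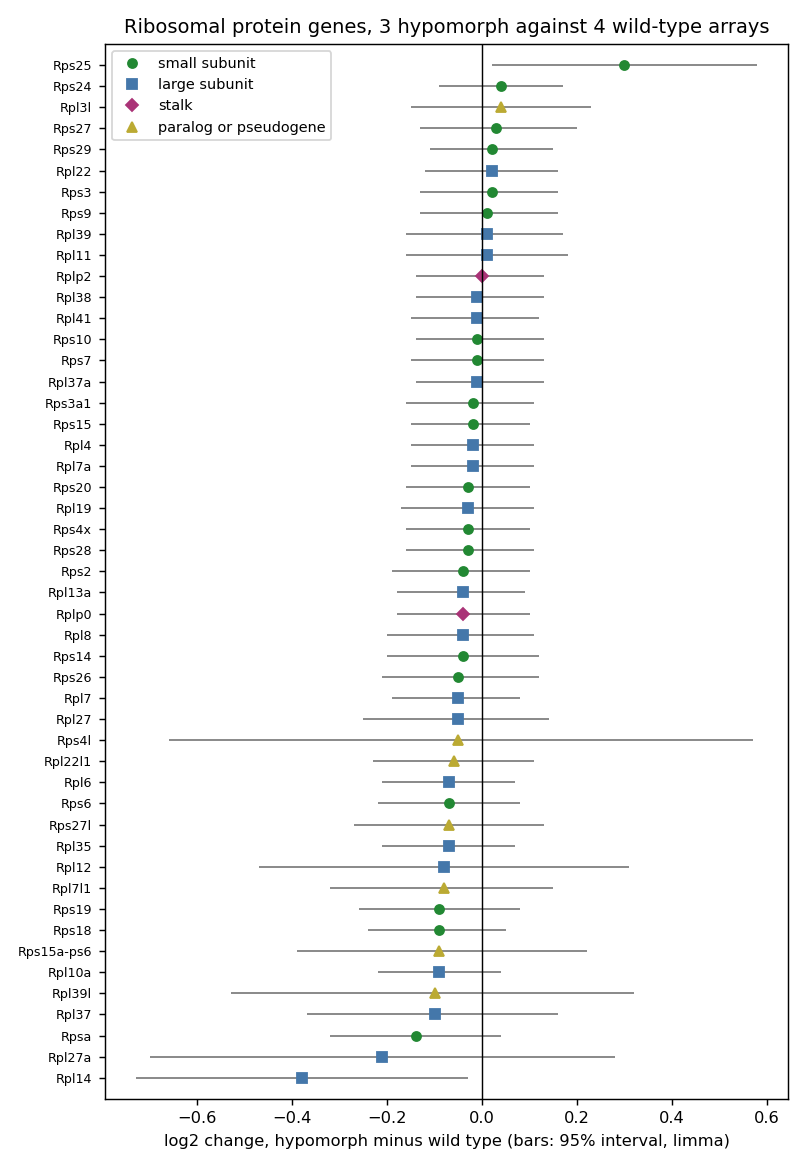
Log2 change with its 95% confidence interval (limma) for each of the 49 ribosomal protein genes on the horizontal axis, hypomorph minus wild type, with genes ordered by the change and marked by class. Of the 49 points 39 lie below 0, and only the intervals of Rpl14 and Rps25 exclude 0.

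The signal of the family was high on this array. Deposited values ran up to between 13.81 and 14.14 on the single arrays, and 36 of the 49 members had a mean log2 value between 11.06 and 13.55. Of the 252 probe sets on the array with a mean above 12, 127 named a ribosomal protein symbol. The median within-group SD of the 36 bright members was 0.038, compared with 0.115 for the 125 other probe sets above 12 and 0.135 for all probe sets. Whether signals near the top of the scale still follow the RNA amount was not tested. The values of different probe sets depend on their probes and do not rank the genes by transcript amount. The other 13 members had means of 8.90 or lower and a median SD of 0.172.

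**Figure D2:**
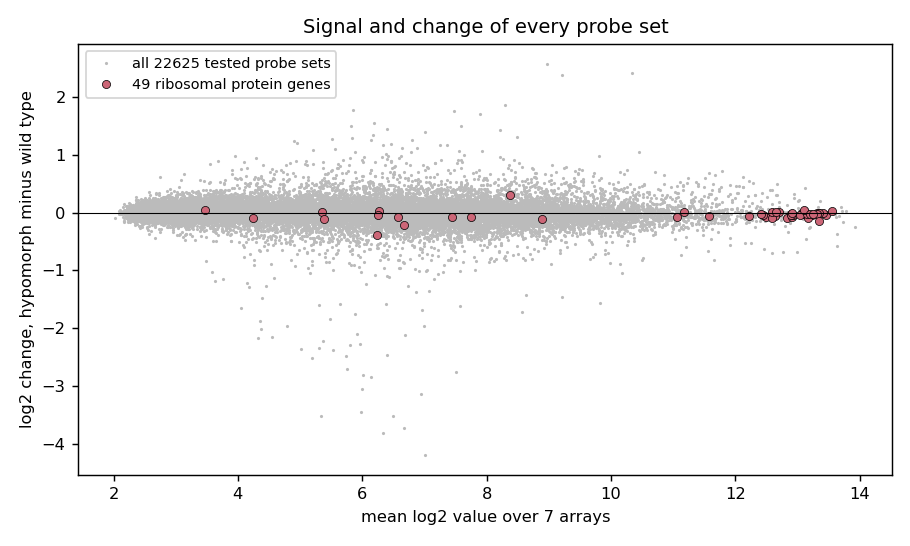
Mean log2 value over the 7 arrays (horizontal) and log2 change, hypomorph minus wild type (vertical), for the 22625 tested probe sets in grey and the 49 ribosomal protein genes in red. The 36 members above 10 form a narrow band around 0, while Rps25 (0.30) and Rpl14 (-0.38) are the members farthest from it.

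Single arrays stood apart within each group. The median deviation of the 36 bright members from their own means was 0.06, 0.00, 0.01 and -0.01 on wild-type replicates 1 to 4, and -0.01, 0.00 and -0.04 on hypomorph replicates 1 to 3. Wild-type replicate 1 held the highest value of 23 of the 36 genes, and hypomorph replicate 3 the lowest value of 17. The 125 other probe sets above 12 had median deviations between 0.00 and 0.02 on every array.

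**Figure D3:**
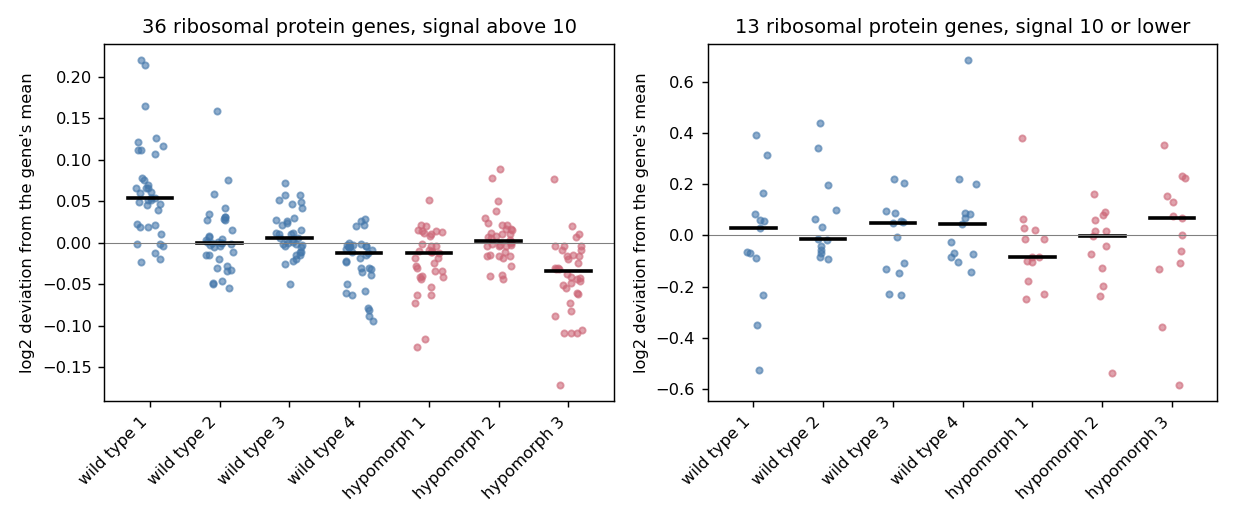
Log2 deviation of each ribosomal protein gene from its own mean over 7 arrays (vertical), by array, for 36 genes with a mean signal above 10 (left) and 13 genes with 10 or lower (right); bars are medians and the vertical scales differ. On the left, wild type 1 is the highest with a median of 0.06 and hypomorph 3 the lowest with -0.04.

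Of the dendritic cell markers 13 of 15 were measured, with Cd209a below the lower quartile, and their summed signal was 13.20 to 13.45 (log2) on the wild-type arrays, against 13.25 to 13.71 on the hypomorph arrays. Markers of other spleen cells were read as well. On wild-type replicate 1, where ribosomal protein genes were highest, the T cell markers (11 of 15 measured, none below the lower quartile) had their highest median deviation, 0.46, and the red pulp macrophage and dendritic cell markers their lowest, -0.61 and -0.19. The summed T cell signal was 11.69 to 12.68 on the wild-type arrays, against 12.08 to 12.39 on the hypomorph arrays. That of the macrophage markers (11 of 11 measured) was 14.52 to 15.29 and 15.08 to 15.30. All 11 macrophage markers had a positive change, with a median of 0.25. At an unadjusted p under 0.05 in limma 1 (9.09%) was higher, against 4.35% of all probe sets. On hypomorph replicate 3, where ribosomal protein genes were lowest, the erythroid markers (9 of 12 measured, Hba-a1 below the lower quartile) had their lowest median deviation, -1.70, against 1.10 on hypomorph replicate 2. The plasma cell markers (5 of 6 measured) and the nuclear retained RNAs (4 of 5) had their highest there, 0.28 and 0.34. The summed erythroid signal was 12.27 to 13.07 for wild type and 10.51 to 13.10 for the hypomorph. Other lists separated the genotypes. The median deviation of the basophil and mast cell markers (5 of 6 measured) was -0.10 to 0.93 for wild type and -0.83 to -0.26 for the hypomorph. Their median change was -1.06, and 4 of the 5 (80.0%) were lower at an unadjusted p under 0.05, against 3.34% of all probe sets (0 after limma adjustment). The median deviation of the plasma cell markers was -0.26 to -0.10 for wild type and 0.13 to 0.28 for the hypomorph, so that neither list overlapped on this measure. Plasma cell markers had a median change of 0.42, and 3 of the 5 (60.0%) were higher at an unadjusted p under 0.05, against 4.35% of all probe sets (0 after limma adjustment). The summed plasma cell signal did overlap, with 11.19 to 11.68 for wild type and 11.56 to 11.98 for the hypomorph. The median change was -2.10 for the pancreatic acinar markers (9 of 12 measured), -0.26 for those of monocytes and neutrophils (11 of 13) and -0.20 for those of B cells (9 of 10, Fcer2a and Ebf1 below the lower quartile), with deviations that overlapped between the groups. For plasmacytoid dendritic cells (8 of 9) it was -0.03. At an unadjusted p under 0.05 in limma, 3 acinar markers (33.3%), 2 of monocytes and neutrophils (18.2%) and 2 of B cells (22.2%) were lower. For plasmacytoid dendritic cells 1 (12.5%) was lower, and 1 acinar marker (11.1%) was higher. The summed B cell signal went the other way from the median change of its list. It was 12.55 to 13.46 on the wild-type arrays (mean 13.01), against 13.21 to 13.73 on the hypomorph arrays (mean 13.41). The part of cell composition in the ribosomal protein values was not tested. As a measure of RNA quality, the actin control read 3′ over 5′ by 0.40 to 0.54 on the wild-type arrays, against 0.36 to 0.41 on the hypomorph arrays, and Gapdh by 0.15 to 0.25 and 0.05 to 0.15, with wild-type replicate 1 highest in each. The exact two-sided permutation p was 0.0857 for each control, 0.143 after adjustment over 5 control measures, with 3 of 3 hypomorph arrays below the wild-type mean, and its part in the ribosomal protein values was not tested either.

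Among the proteins of the small subunit, 14 of 20 genes had a negative change, with a median of -0.03. Rpsa, a protein of the small subunit that is also known as a laminin receptor, had array values of 13.56, 13.38, 13.34 and 13.34 on the wild-type arrays, against 13.23, 13.33 and 13.24 on the hypomorph arrays. The hypomorph arrays lay just below the wild-type arrays, and wild-type replicate 1 stood highest. The change was -0.14 (95% interval -0.32 to 0.04, limma adjusted p = 0.666), and -0.09 without that array. Rps18, a protein of the head of the small subunit, read 13.29, 13.17, 13.22 and 13.17 on the wild-type arrays, against 13.10, 13.17 and 13.09 on the hypomorph arrays, a change of -0.09 with overlapping groups. The 3 probe sets of Rps18 with means above 12 had changes of -0.09, -0.08 and -0.14, and the other 3 had means of 4.80 or lower.

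Rps19, whose human counterpart is often mutated in the congenital anaemia of Diamond and Blackfan, read 12.62 ± 0.0850 (SD, n = 4) for wild type against 12.53 ± 0.0652 (SD, n = 3) for the hypomorph. Rps3, which lines the entry of the mRNA channel, read 12.58 ± 0.0570 and 12.60 ± 0.0349. Rps24 read 13.09 ± 0.0330 and 13.13 ± 0.0203, and Rps9 read 12.65 ± 0.0264 and 12.66 ± 0.0685. Rps29 had the highest mean signal of all members and read 13.54 ± 0.0287 and 13.56 ± 0.00552. The groups of these 5 genes overlapped, with changes from -0.09 to 0.04. Rps4x, named after its values were seen, was the small subunit gene with the narrowest range, 0.05 over the 7 arrays, and its hypomorph arrays lay below the wild-type arrays by a mean of only 0.03 (13.26 ± 0.0154 and 13.23 ± 0.00411).

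Rps6, the small subunit protein phosphorylated by the S6 kinases downstream of mTORC1, had array values of 7.80, 7.70, 7.79 and 7.81 on the wild-type arrays, against 7.66, 7.76 and 7.68 on the hypomorph arrays. The groups overlapped through wild-type replicate 2, and the change was -0.07 (-0.22 to 0.08). This probe set had a mean of 7.74. A second probe set that names Rps6 alone, with a mean of 4.17, gave 0.11 (-0.30 to 0.51). The brightest of those that name it with a pseudogene or unnamed gene model was far brighter, with a mean of 13.59, and gave -0.02.

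Rps25, which some viral and cellular mRNAs need for initiation at internal sites, was the member with the largest positive change. Its array values were 8.15, 8.48, 8.15 and 8.24 on the wild-type arrays, against 8.76, 8.38 and 8.51 on the hypomorph arrays. Hypomorph replicates 1 and 3 were above all wild-type arrays, and replicate 2 was not. The change was 0.30 (0.02 to 0.58, unadjusted p = 0.0386, limma adjusted p = 0.644), and 0.19 without hypomorph replicate 1. The probe set that names Rps25 together with pseudogenes or unnamed gene models had 12.52, 12.44, 12.41 and 12.35 on the wild-type arrays, against 12.37, 12.35 and 12.38 on the hypomorph arrays. Its change was -0.06 (-0.21 to 0.08), so the direction depended on the probe set.

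Among the large subunit genes outside the stalk, 17 of 20 had a negative change, with a median of -0.04. Rpl14, a structural protein of this subunit, was the member with the largest change. It read 6.55, 6.43, 6.29 and 6.32 on the wild-type arrays, against 6.15, 6.25 and 5.65 on the hypomorph arrays. All hypomorph arrays were below all wild-type arrays, and hypomorph replicate 3 stood lowest. The change was -0.38 (-0.73 to -0.03, unadjusted p = 0.0351, limma adjusted p = 0.644), a 1.30-fold lower signal, and -0.20 without hypomorph replicate 3. Relative to the median of the 49 members on each array it was -0.39 (unadjusted p = 0.0293), which made it the only member under 0.05 in that fit, where 2.94% of all probe sets were lower and 3.31% higher. In that fit 40 of the 49 members still had a negative change, with a median of -0.05. The subtracted median itself had a mean of 12.71 for wild type and 12.72 for the hypomorph. It did not share the lean, so this fit could not remove a lean common to the members.

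Rpl14 was also covered by 5 probe sets that name it together with a pseudogene or unnamed gene model. Their changes were -0.17, -0.14, -0.17, -0.18 and -0.10, all negative and smaller than that of the probe set naming Rpl14 alone. The brightest of them read 13.09, 12.90, 12.99 and 12.86 on the wild-type arrays, against 12.79, 12.78 and 12.79 on the hypomorph arrays, again without overlap (unadjusted p = 0.0456, limma adjusted p = 0.644). Signal from the pseudogene or model and from Rpl14 cannot be told apart on these probe sets.

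**Figure D4:**
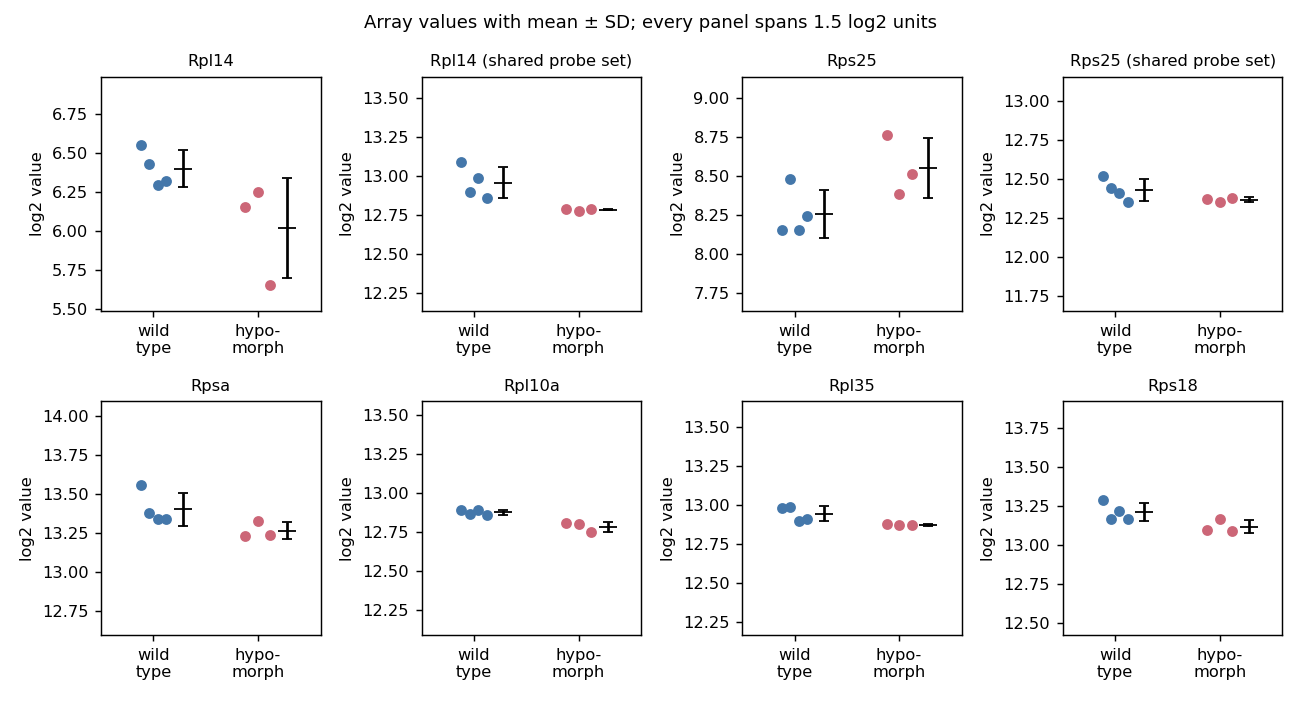
Log2 values on each array for Rpl14 and Rps25 with the probe set naming each alone and with the brightest shared probe set, and for Rpsa, Rpl10a, Rpl35 and Rps18; points are arrays (4 wild type, 3 hypomorph), bars are mean ± SD, and each panel spans the same height. Rpl14 is lower on the hypomorph arrays on both probe sets, whereas Rps25 differs in direction between its probe sets.

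Rpl10a, part of the mobile L1 stalk near the exit of spent tRNA, read 12.89, 12.87, 12.89 and 12.86 on the wild-type arrays, against 12.81, 12.80 and 12.75 on the hypomorph arrays. The groups did not overlap, and the change was -0.09 (-0.22 to 0.04, limma adjusted p = 0.686). Rpl35, which lies by the exit of the peptide tunnel and has the long pyrimidine run printed above, read 12.98, 12.99, 12.90 and 12.91 on the wild-type arrays, against 12.88, 12.87 and 12.87 on the hypomorph arrays. Its groups did not overlap either, and its 5 probe sets with means above 12 had negative changes, from -0.12 to -0.02. Rpl6 read 12.53 ± 0.0506 and 12.46 ± 0.0237.

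Rpl11, which with Rpl5 and 5S rRNA can bind Mdm2 and stabilise p53, read 12.70 ± 0.0967 (SD, n = 4) for wild type against 12.71 ± 0.00635 (SD, n = 3) for the hypomorph. Rpl5, through a probe set shared with another gene, read 13.47 ± 0.0190 and 13.44 ± 0.0199. Rpl13a, which in interferon-treated myeloid cells can leave the ribosome to silence inflammatory mRNAs, read 13.48 ± 0.0341 and 13.44 ± 0.0227. Rpl41, the smallest ribosomal protein, read 13.41 ± 0.0357 and 13.40 ± 0.0162. The changes of these 4 genes lay between -0.04 and 0.01.

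The stalk is the flexible arm of the large subunit that recruits elongation factors, with Rplp0 as its base. Rplp0 read 13.30, 13.23, 13.26 and 13.20 on the wild-type arrays, against 13.19, 13.26 and 13.17 on the hypomorph arrays, a change of -0.04 (-0.18 to 0.10). Rplp2 read 13.41, 13.30, 13.36 and 13.33 on the wild-type arrays, against 13.34, 13.36 and 13.34 on the hypomorph arrays, with both group means at 13.35. The groups overlapped for each gene. Rplp1, seen only through a shared probe set, read 13.44 ± 0.0162 and 13.45 ± 0.0204.

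Paralogs and pseudogenes made up 7 members, 6 of them with a negative change and a median of -0.07. Rpl22l1 read 11.60 ± 0.0847 (SD, n = 4) for wild type against 11.54 ± 0.0637 (SD, n = 3) for the hypomorph, and its partner Rpl22, which lymphocyte development needs, read 11.17 ± 0.0180 and 11.19 ± 0.0566. Rps27l, a p53-responsive relative of Rps27, read 11.09 ± 0.0845 and 11.02 ± 0.130, and Rps27 read 6.26 ± 0.0846 and 6.29 ± 0.0562. Rpl7l1 read 7.47 ± 0.122 and 7.39 ± 0.163, next to 12.67 ± 0.0349 and 12.61 ± 0.0404 for Rpl7. Rpl39l, a form best known from testis, read 5.42 ± 0.352 and 5.32 ± 0.104, and the probe set naming Rpl39 alone read 5.35 ± 0.0595 and 5.36 ± 0.0986. A probe set that names Rpl39 with a pseudogene or unnamed gene model was far brighter, at 13.55 ± 0.0445 and 13.55 ± 0.0015. In each of these 4 pairs the groups overlapped for both genes, with changes from -0.10 to 0.03. Rpl3l, the striated muscle form of Rpl3, had a mean of 3.46, close to the lower quartile of all values at 3.34, so little can be read from its change of 0.04. Rps15a-ps6 read 4.28 ± 0.137 and 4.19 ± 0.249.

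The widest spread over the arrays was found among members with dim probe sets. Rps4l ranged over 1.21 log2 units, from 5.73 on wild-type replicate 1 to 6.94 on wild-type replicate 4, with the hypomorph at 6.15, 6.06 and 6.48. Rpl27a ranged over 0.93, with 7.07, 6.71, 6.57 and 6.72 on the wild-type arrays, against 6.50, 6.14 and 7.03 on the hypomorph arrays. Rpl12, which sits at the base of the stalk, ranged over 0.70. For these 3 genes the groups overlapped. For Rpl12 and Rpl27a the brightest shared probe sets, with means of 12.49 and 13.22, gave changes of -0.04 and 0.00.

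Because many ribosomal protein genes have processed pseudogenes, 102 further probe sets name such a gene together with others. Of these, 91 pair 1 ribosomal protein gene with pseudogenes or unnamed gene models only, and they reached 25 genes that are not among the 49. In those 25, of which Rpl23, Rpl26 and Rps15a are examples, 20 changes were negative, the median was -0.03 and all 25 lay within 0.1 of 0. The hypomorph lay below wild type without overlap for 6 of them (24.0%, against 2.5% of all probe sets). Among the 125 other probe sets above 12 this share was 7.2%. None of the 25 had an unadjusted p under 0.05 in limma (0 after adjustment). Over the 49 members and these genes together, with shared probe sets allowed, 60 changes were negative and the median was -0.028. Of all 101 probe sets naming a member alone, 78 had negative changes.

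Genes that act with the ribosome showed no member past an adjusted p of 0.05 in any list. Fau, which encodes a ribosomal protein fused to a ubiquitin-like domain, read 12.90 ± 0.0736 and 12.91 ± 0.0528. Elongation factors and other TOP mRNAs had a negative change in 18 of 21 measured genes, with a median of -0.06, and 1 (4.76%) was lower at an unadjusted p under 0.05, against 3.34% of all probe sets. The 3 with the smallest p were Eif4b, a cofactor of the eIF4A helicase (-0.21), Eif3l (-0.16) and the nucleolar chaperone Npm1 (-0.14). Eif4b had 10.12 ± 0.104 (SD, n = 4) against 9.91 ± 0.0844 (SD, n = 3) for the hypomorph, without overlap (limma adjusted p = 0.644), and its 3 probe sets were all lower.

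Ribosome biogenesis genes had a negative change in 42 of 49 measured genes, with a median of -0.10, and at an unadjusted p under 0.05 4 were lower (8.16%, against 3.34% of all probe sets) and 1 was higher (2.04%, against 4.35%). Lsg1, a GTPase of the last steps of large subunit maturation, read 6.62, 6.72, 6.50 and 6.72 on the wild-type arrays, against 7.02, 6.89 and 6.84 on the hypomorph arrays, a change of 0.27 (0.09 to 0.46, limma adjusted p = 0.644) without overlap. Polr1b, a subunit of RNA polymerase I, had a change of -0.44, and Ebna1bp2, a nucleolar assembly factor, had -0.21, both with overlapping groups. The median deviations of this list were 0.02, 0.18, -0.08 and 0.04 on the wild-type arrays, against -0.01, 0.02 and -0.17 on the hypomorph arrays. Those of the cell cycle genes, all 19 negative with a median of -0.40, were 0.14, 0.29, 0.05 and 0.15, and -0.25, 0.20 and -0.54. At an unadjusted p under 0.05 in limma 8 of the 19 (42.1%) were lower, against 3.34% of all probe sets. Both lists were highest on wild-type replicate 2 and lowest on hypomorph replicate 3, and the part of cycling cells in the biogenesis values was not tested.

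Genes of mTORC1 and cap binding had 9 of 15 negative changes with a median of -0.02, and 0 were under an unadjusted p of 0.05 in limma; Mlst8 (-0.16, with 1 of its 2 probe sets higher), Eif4a2 (0.13, and -0.01 without hypomorph replicate 2) and Tsc2 (-0.09) had the smallest p. Genes of ribosome quality control and ribophagy had 10 of 13 negative changes with a median of -0.08, and 1 (7.69%) was lower at an unadjusted p under 0.05, against 3.34% of all probe sets. This was Hbs1l, which helps release stalled ribosomes, at -0.19, but 1 of its 2 probe sets was higher, and the mean over both gave -0.03 (unadjusted p = 0.714, limma adjusted p = 0.932). The change was -0.19 for Znhit3, which binds the ribophagy receptor Nufip1, and 0.13 for Tcf25. The groups of Znhit3 and Tcf25 did not overlap, and all 4 probe sets of Tcf25 were higher.

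**Figure D5:**
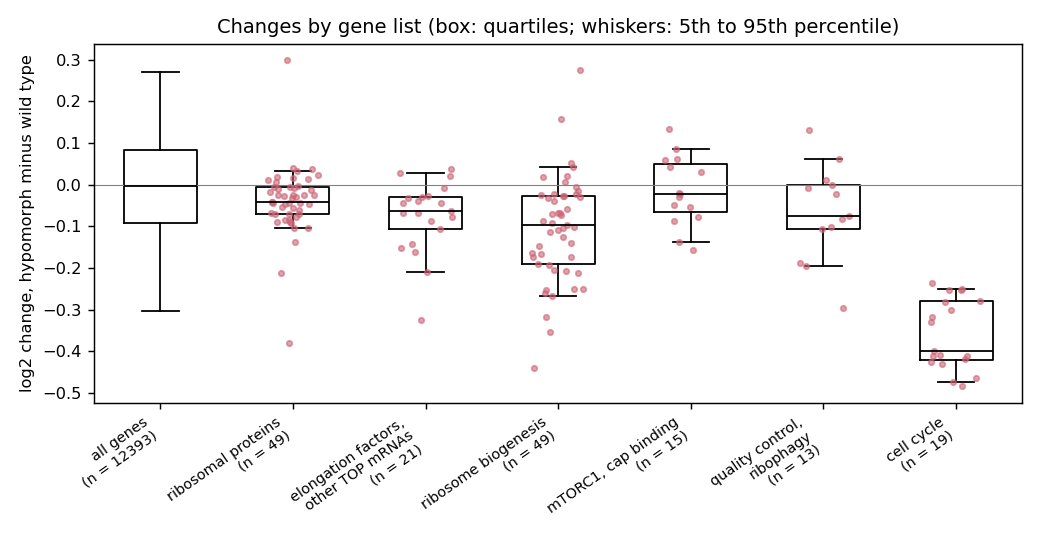
Log2 change, hypomorph minus wild type (vertical), for all genes and for each list (boxes are quartiles, whiskers the 5th and 95th percentiles, points single genes). The ribosomal proteins have a median of -0.04 and the ribosome biogenesis genes -0.10, and cell cycle genes lie lowest with -0.40.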

How the data were processed

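RNA (100 ng per sample) was hybridised to 1 Affymetrix mouse expression array each. The authors deposited log2 values, 1 per probe set and array. The submitters' processing notes name Affymetrix Power Tools. Summary, background and normalization methods: not given in the sources used here. Values were used as deposited, without 64 control probe sets and 1 without a value, leaving 22625. Genes came from the platform's annotation, updated by Entrez identifier (RefSeq, GRCm38.p6). Of these probe sets 20379 name 1 gene, 691 several and 1555 none. The genotype contrast was fitted by limma 3.58.1 (R 4.3.3), with Benjamini-Hochberg adjustment over all probe sets, and again after subtracting each array's median over the members. Of the members' chosen probe sets, 19 had the suffix _a_at (transcripts of 1 gene), 11 _x_at (possible cross-hybridisation) and 1 _s_at.

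Members, lists and naming rule (roles, paralog pairs, highest and lowest signal, smallest p in each direction, widest range) were chosen with earlier results of these data known. On simulated data with 200 of 22625 probe sets changed, 42.6% were recovered at a log2 change of 0.5 and 78.9% at 1. The changed probe sets were drawn from the whole array, with noise independent between probe sets. Most members had changes smaller than 0.1, so these shares do not give the power for this family. The number of arrays limits the precision. Deviations of same-numbered arrays had correlations of 0.102, 0.0977 and 0.339. Those of differently numbered arrays ran from -0.256 (wild type 2 with hypomorph 3) to 0.207 (wild type 2 with hypomorph 1). No label pairs the arrays.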

Additional observations from a re-analysis of the deposited data

Results flagged for a closer look

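Of the genes named above, 4 had 1 wild-type array far from the other 3, by the gap to the nearest array as a share of the range, beyond Dixon's 95% limit. In all, 46 items were tested this way, and chance marks about 1 in 20 groups. Rps27l had a share of 0.888, with wild-type replicate 2 at 11.22 and the others between 11.04 and 11.06. For Rps6 the share was 0.849, with the same replicate lowest at 7.70. Eif4b had a share of 0.866, again with replicate 2 highest at 10.27. For Eif4a2, a translation initiation helicase, the share was 1.0, since the other 3 arrays had the same value.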

How the results depend on the processing

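No ribosomal protein gene reached an adjusted p of 0.05 under any alternative run. For all probe sets, the count past it was 0 with all arrays and 5 with median centring, with trend and robust settings and with a filter on low values, 3 with array weights, and 0 to 2 with single arrays left out. The filter gave 559 higher and 498 lower at an unadjusted p under 0.05, in place of 984 and 755, with fewer probe sets tested. Leaving out single arrays gave 598 to 1411 higher and 431 to 1578 lower. Among the members 3 were lower with 32 added to the linear value, 0 were higher with the replicate block, 17 changes were negative among the 25 genes with a probe set without suffix, and, as alternatives chosen after seeing the data, 60 were negative and 0 higher with shared probe sets, and 0 higher and 0 lower among the 36 bright members. Single arrays left out gave 0 to 1 lower (0 without wild-type replicates 1, 2 or 4) and 0 to 1 higher (0 without wild-type replicates 1, 3 or 4, or hypomorph replicates 1 or 3), with 32 to 41 negative changes and medians of -0.036 to -0.021. Relative to the family, 2 members were lower with trend and robust settings or the added 32, 0 were lower with the dimmest or the suffix-free probe sets, and 1 was higher with these, the filter or the mean over probe sets; single arrays left out gave 0 to 1 in each direction. The cause of these differences was not tested. Rps25 turned to -0.06 with shared probe sets. Of the 45 named genes, 34 of 772 values under alternatives had the opposite sign. With the replicate block 41 changes were negative, the median was -0.035 and 1 member was lower.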

Other observations

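The array carries control probe sets for 18S ribosomal RNA, which above entered only the adjustment over 5 control measures. Their 3′ probe set read 8.10, 8.03, 7.83 and 8.05 on the wild-type arrays, against 8.46, 8.21 and 8.28 on the hypomorph arrays, 0.32 higher with all 3 hypomorph arrays above all 4 wild-type arrays. An exact permutation test (two-sided) gave p = 0.0286, its minimum for 7 arrays, and 0.143 after adjustment over 5 control measures. The middle probe set was 0.20 higher (p = 0.257, exact permutation) and the 5′ probe set 0.20 higher (p = 0.314, exact permutation), with overlapping groups. The direction was opposite to that of most ribosomal protein mRNAs. How much 18S RNA entered the labelling was not analysed here.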
